A study of Arabidopsis thaliana with 3 samples.

Results

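Mitochondrial substrate carriers are membrane proteins that exchange nucleotides, organic acids, amino acids, cofactors and ions across the inner membrane of the mitochondrion. Each is built of repeated units of paired membrane helices around a central substrate site, and opens in turn to either side of the membrane. In plants, members of the family also sit in peroxisomes, plastids and the plasma membrane, so the family name gives the fold and not the compartment. In a germinating oilseed such as Arabidopsis, carriers link the breakdown of stored lipid in peroxisomes with respiration in mitochondria and with the developing plastids.

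The carriers were taken as all loci whose array annotation contains the words mitochondrial substrate carrier, whatever their ratio. There were 48 such loci, of which the rule set 1 aside, which left 47 of the 25665 loci on the array. Each of the 47 had 1 probe, no probe listed another locus, and no spot was saturated. For 44 of the 47, tdt-1 and wild type were both well above background on all 3 arrays. A locus was tested where 1 of the genotypes was well above background on all 3 arrays, and 45 of the 47 were tested. The reference table gave a name that states a substrate or a transporter type for 26 of the 47. The other 21 are named by locus code and given no role.

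Whole seedlings of Arabidopsis thaliana were sampled at 3 days, with tdt-1 as the mutant and wild type as its control, both raised in constant light at 22 °C on MS agar. RNA of tdt-1 and RNA of wild type shared each of 3 two-colour Agilent arrays, which the labels call biological replicates. On replicates 1 and 2 tdt-1 was labelled with Cy5 and wild type with Cy3. On replicate 3 the dyes were swapped, and that array also had a later layout and another scan day. Its scan settings differed as well, with 5 micron in place of 10. Dye, layout, scan day and scan settings therefore cannot be told apart. Ratios are given as log2, tdt-1 over wild type, after loess normalization, and a mean ± SD is over 3 arrays unless stated.

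The labels name neither the gene affected in tdt-1 nor the wild-type accession. Both TDT and TRIDENT appear in the reference table as other names of DCP2 (AT5G13570), whose product removes the cap of mRNAs. The DCP2 ratio was −0.44, −0.46 and −0.96 on replicates 1, 2 and 3, with a mean of −0.62 ± 0.29 (limma adjusted p = 0.0629). Where the lesion lies relative to the probe is not given, so this value does not check the labels. The share of spots well above background ranged from 65.2% to 69.4% for tdt-1 and from 69.4% to 79.7% for wild type. The multiplier behind this flag was 2.6 on replicates 1 and 2 and 13 on replicate 3. The shares, and the choice of tested loci by the same flag, thus rest on unlike thresholds between arrays. All 11 fixed markers of seedling cell types, from photosynthetic cells to root hairs, phloem and stomatal lineage, were well above background in both genotypes on every array. Their mean ratios ran from −1.02 to 0.30 with a median of −0.56. None was higher past the test and 1 was lower, the light-harvesting gene CAB1 (AT1G29930), at −0.75. Among all tested loci 7.36% were higher and 5.97% lower. Of the 11, RBCS1A and CAB2 were saturated in wild type on all 3 arrays, so their ratios are bounded by the scanner. The part of cell composition in the carrier ratios was not tested. In whole seedlings, fewer cells of a type and less RNA per cell cannot be told apart.

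Of the 45 tested carriers, 2 were higher and 3 were lower in tdt-1 at a limma adjusted p under 0.05. The 2 that rose were PNC2, a peroxisomal adenine nucleotide carrier, and AT4G15010. The 3 that fell were SAMTL, named for its likeness to S-adenosylmethionine transporters, NDT1, an NAD+ transporter, and AT1G72820. These 5 make up 11.1% of the tested carriers. Among all 20484 tested loci the test called 13.3%, of which 7.36% were higher and 5.97% lower, so the carriers were called at about the share of the whole array. Replicates 1 and 2, which share dye, layout and scan day, counted as separate replicates there, as the labels give them. With these 2 arrays averaged as 1 replicate, limma called 0 of the 45 carriers and 43 of all tested loci. At an unadjusted p under 0.05 there were 8 carriers in that setting, for which no share of all tested loci is given. At an unadjusted limma p under 0.05 on the 3 arrays there were 19 of the 45 carriers, beside 35.1% of all tested loci.

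The other 40 tested carriers did not pass the test. The mean ratios of the 45 ran from −0.81 to 1.24, with 20 above 0 and 25 below. Their median was −0.03, beside 0.02 for all tested loci, and their middle 50% lay between −0.29 and 0.25, beside −0.22 and 0.27. A change of at least 2-fold was seen in 1 of the 45, or 2.22%, beside 5.83% of all tested loci. The ratio had the same sign on all 3 arrays for 28 of the 45 carriers, 15 higher and 13 lower, beside 58.9% of all tested loci, of which 31.4% were higher and 27.5% lower. By array, the carriers' median was −0.07, −0.08 and 0.14 on replicates 1, 2 and 3, against 0.04, 0.03 and −0.01 for all loci.

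**Figure D1:**
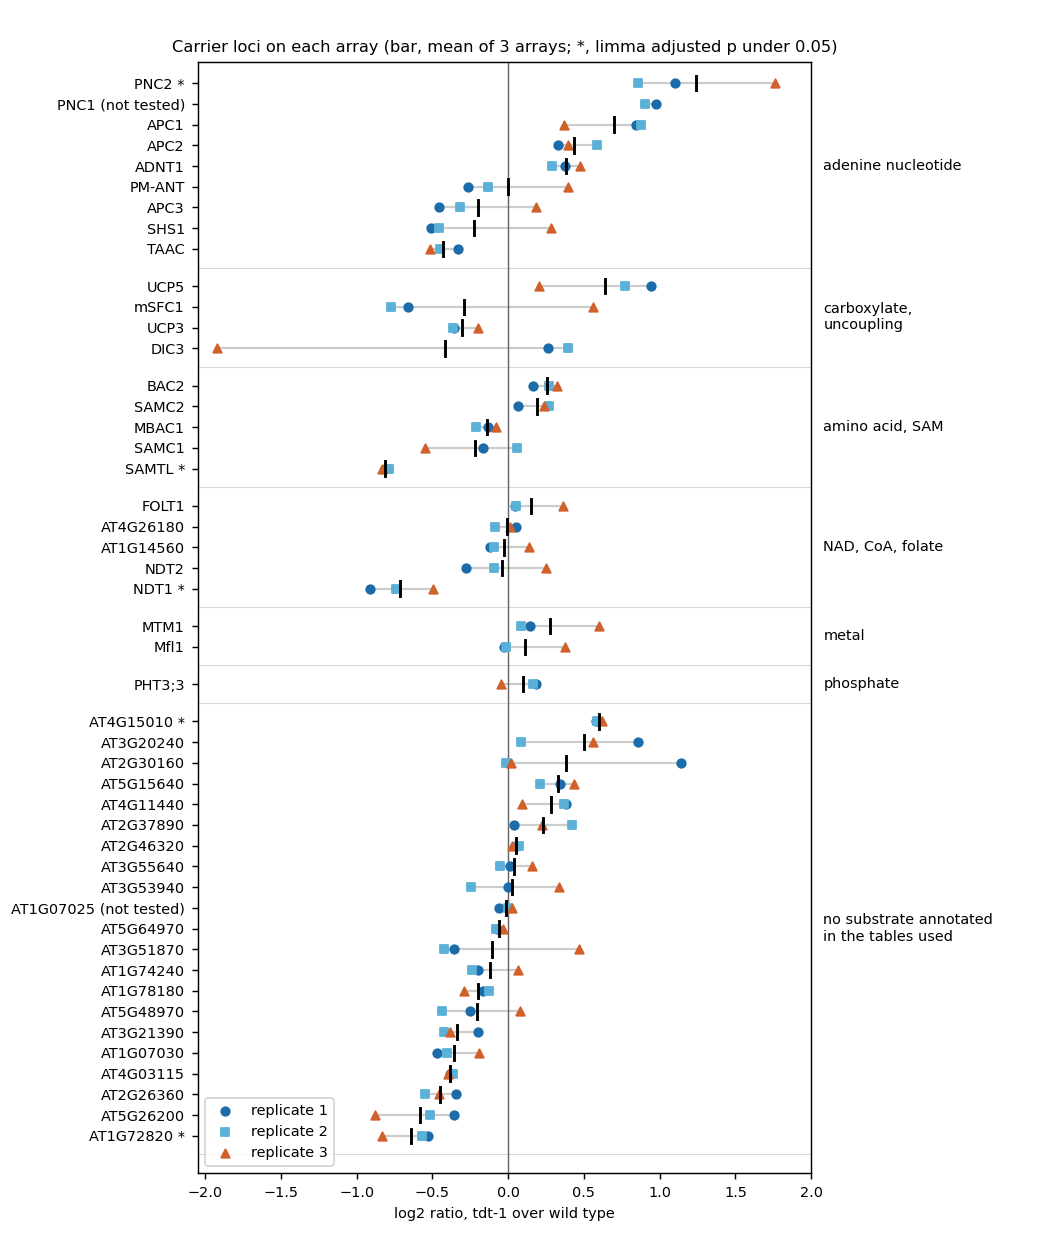
Log2 ratio of tdt-1 over wild type (x axis) for each of the 47 carriers (y axis), grouped by the substrate that the reference table names. Points are single arrays, black bars the mean of 3 arrays and asterisks a limma adjusted p under 0.05. PNC2 has the highest mean, 1.24, and SAMTL the lowest, −0.81, and DIC3 has the widest spread between arrays.

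PNC2 (AT5G27520) had the highest ratio among the tested carriers. It imports ATP into peroxisomes in exchange for other adenine nucleotides, which supplies the activation of fatty acids for their oxidation. The normalized signal, on an arbitrary linear scale with its own height on each array, was 538 in tdt-1 and 250.5 in wild type on replicate 1. The pair of signals was 531 and 293 on replicate 2, and 15849 and 4683 on replicate 3. Signal in tdt-1 was above that in wild type on every array. The ratios were 1.102, 0.86 and 1.76, with a mean of 1.24 ± 0.47, which is 2.36-fold higher in tdt-1 (95% interval 0.69 to 1.79 on the log2 scale, limma adjusted p = 0.0363). Without background correction the PNC2 mean was 1.19 and missed the threshold (limma adjusted p = 0.0539). The annotation of the first layout places the PNC2 probe at chr5:9714683-9714742 on the minus strand.

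PNC1 (AT3G05290), the second peroxisomal adenine nucleotide carrier, was not tested, because its spot on replicate 3 was marked as non-uniform and left out. On replicate 1 the PNC1 signal was 613 in tdt-1 and 312 in wild type, and on replicate 2 it was 721 and 385. The PNC1 ratios were 0.97 and 0.91, so both usable arrays had tdt-1 above wild type, as for PNC2. With non-uniform spots kept, an alternative chosen after seeing the data, replicate 3 gave 0.68 and the mean was 0.85 ± 0.15, or 1.81-fold, past the test (limma adjusted p = 0.0232). The difference of the ratios, PNC2 minus PNC1, was 0.13 and −0.05 on replicates 1 and 2, and its sign was not the same on both. The PNC1 probe is placed at chr3:1505990-1506049 on the minus strand.

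AT4G15010 was the second carrier that rose. Its signal in tdt-1 and wild type was 326 and 218 on replicate 1, 387 and 257 on replicate 2, and 4166 and 2708 on replicate 3. The ratios were 0.58, 0.59 and 0.62, close to each other in both dye orientations. The mean of 0.60 ± 0.02 is 1.51-fold higher in tdt-1 (95% interval 0.37 to 0.82, limma adjusted p = 0.0287). The files and the reference table name no substrate for AT4G15010. Its probe is placed at chr4:8572981-8573040 on the minus strand.

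SAMTL (AT2G35800) had the lowest ratio among the tested carriers and the smallest adjusted p. Its signal in tdt-1 and wild type was 232 and 407 on replicate 1, 281 and 486 on replicate 2, and 3071 and 5464 on replicate 3. Wild type was the higher genotype on every array. The ratios were −0.81, −0.79 and −0.83, with a mean of −0.81 ± 0.02, which is 1.75-fold lower in tdt-1 (95% interval −1.04 to −0.58, limma adjusted p = 0.0199). Its description, like those of APC1 and APC2, names a calcium-binding EF-hand domain. The SAMTL probe is placed at chr2:15055323-15055382 on the plus strand.

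NDT1 (AT2G47490) carries NAD+ into an organelle. Its signal in tdt-1 and wild type was 291 and 547 on replicate 1, 334 and 557 on replicate 2, and 6667 and 9391 on replicate 3. All 3 arrays had tdt-1 below wild type, with the log2 ratio smallest in size on the dye-swapped array. The NDT1 ratios were −0.91, −0.74 and −0.49, with a mean of −0.71 ± 0.21, or 1.64-fold lower (95% interval −1.03 to −0.40, limma adjusted p = 0.0365). On the scanner software's own log ratios the NDT1 mean was −0.80 and missed the threshold (limma adjusted p = 0.0532). The NDT1 probe is placed at chr2:19496291-19496350 on the plus strand.

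AT1G72820, for which no substrate is annotated here, was the third carrier that fell. Its signal in tdt-1 and wild type was 252 and 364 on replicate 1, 301 and 446 on replicate 2, and 3125 and 5573 on replicate 3. Again wild type was higher on every array, most of all on replicate 3. The ratios were −0.53, −0.57 and −0.83, with a mean of −0.64 ± 0.17, or 1.56-fold lower in tdt-1 (95% interval −0.93 to −0.35, limma adjusted p = 0.0368). Without background correction the AT1G72820 mean was −0.60 and missed the threshold (limma adjusted p = 0.0552). The AT1G72820 probe is placed at chr1:27408132-27408191 on the plus strand. The genome build behind all these probe positions is not named in the sources used here, and whether a probe lies in an exon or a UTR is not annotated in the files.

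**Figure D2:**
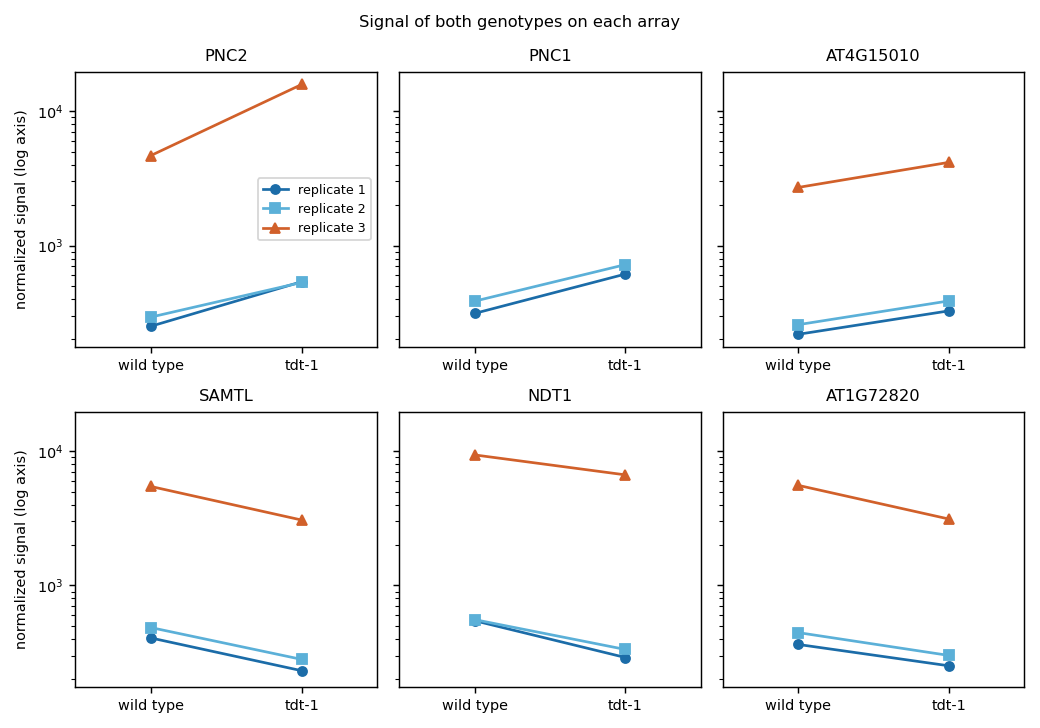
Normalized signal (y axis, log scale, arbitrary units) in wild type and tdt-1 (x axis) for the 5 carriers past the test and for PNC1, with 1 line per array. Lines rise from wild type to tdt-1 on every array shown for PNC2, PNC1 and AT4G15010 and fall for SAMTL, NDT1 and AT1G72820. PNC1 has no line for replicate 3, whose spot was left out, and heights are not comparable between arrays.

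The call of these 5 carriers depended on the set of arrays, the variance estimate, the normalization and the background correction. All 5 kept their sign under each of the 16 alternatives tried. As each had 1 sign on all 3 arrays, leaving out, averaging or weighting arrays or adding a dye term could not turn it. The filters, the mean over probes and the variance setting left their means as they were. Only changes of background correction, normalization or log ratio could have turned the sign. Without replicate 1 or without replicate 2, limma called 0 of the 45 carriers, with 8 at an unadjusted p under 0.05 in each case. Few loci of any kind were called there, 0.962% and 0.542% of all tested loci. Without replicate 3 it called 27 of them, 10 higher and 17 lower, beside 60.9% of all tested loci. Median centring in place of loess called 0 of the 45, with 8 at an unadjusted limma p under 0.05, and 1 of all 20484 tested loci. For these unadjusted counts of 8, the share of all tested loci at the same threshold is not given here. On the scanner software's log ratios the split was 4 higher and 3 lower, in place of 2 and 3, beside 8.3% and 6.88% of all tested loci. The software's own p-value per spot, which covers error within 1 array, was under 0.01 in the same direction on all 3 arrays for 1 higher carrier, PNC2, and 1 lower carrier, SAMTL. The share of all tested loci that met this is not given here.

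**Figure D3:**
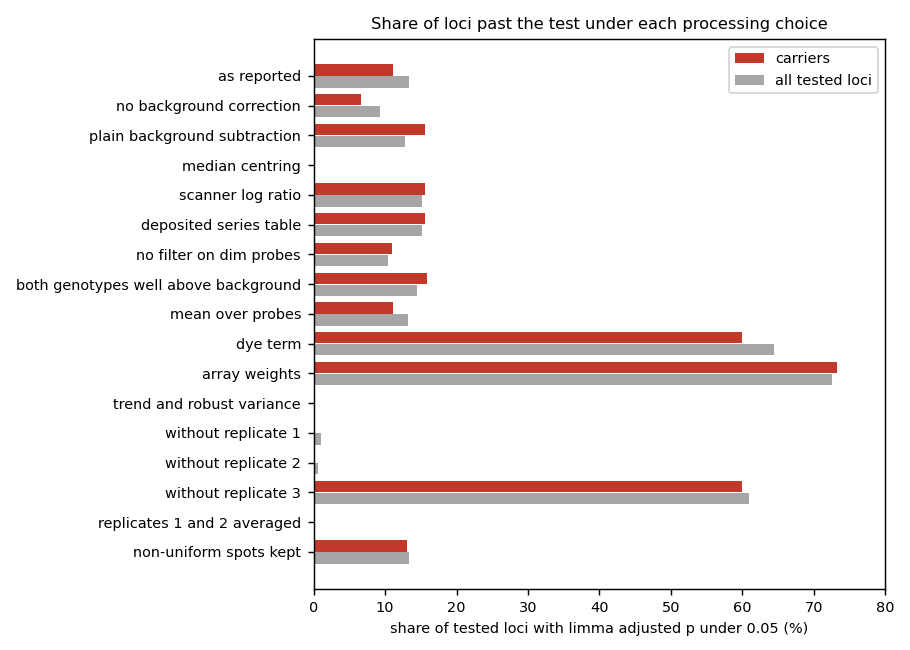
Share of tested loci with a limma adjusted p under 0.05 (x axis, percent) under each processing choice (y axis), for the carriers and for all tested loci. The share of carriers runs from 0 to 73.3% and follows that of all tested loci, and with the processing as reported the shares are 11.1% and 13.3%.

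Adenine nucleotide carriers formed the largest group with a named substrate, with 9 loci, of which 8 were tested, 1 rose and none fell. The counts of this and the groups below are to be read beside the 13.3% called among all tested loci. The adenine nucleotide group was called at 12.5%. Its median ratio was 0.19 over the mean ratios, and 0.03, 0.08 and 0.38 on replicates 1, 2 and 3, so it was highest on the dye-swapped array. APC1 and APC2 are ATP-Mg/phosphate carriers, which adjust the adenine nucleotide content of the mitochondrial matrix, and both are described as holding a calcium-binding EF-hand domain. APC1 (AT5G61810) stood at 0.85, 0.87 and 0.37, positive on every array. Its mean of 0.70 ± 0.29 lay just short of the threshold (95% interval 0.31 to 1.08, limma adjusted p = 0.0502). APC2 (AT5G51050) had a mean of 0.44 ± 0.14, and APC3 (AT5G07320), of the same name series, −0.20 ± 0.34.

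Among the other adenine nucleotide carriers, ADNT1, a mitochondrial transporter of AMP, ADP and ATP, was at 0.38 ± 0.09 (limma adjusted p = 0.0671). TAAC, the thylakoid ATP/ADP carrier of chloroplasts, was at −0.43 ± 0.10 (limma adjusted p = 0.0540). Both had 1 sign on all 3 arrays and neither passed the test. SHS1, the Arabidopsis homologue of the Brittle 1 nucleotide carrier of plastids, was at −0.51 and −0.45 on replicates 1 and 2 and at 0.28 on replicate 3. PM-ANT, an adenine nucleotide transporter of the plasma membrane, had a mean of −0.002 ± 0.35, with replicate 3 again above 0 and the others below. A fixed list of carriers by substrate also places AT3G51870 in this group, at −0.10 ± 0.49. The reference table does not name it, so it is counted below without a role, and it did not pass the test.

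Carboxylate carriers and uncoupling proteins comprised 4 loci, all tested, of which none passed. UCP5 (AT2G22500), also listed as dicarboxylate carrier 1, exchanges malate and related organic acids across the inner membrane. Its ratios of 0.94, 0.77 and 0.20 were all positive, with a mean of 0.64 ± 0.39 (95% interval 0.16 to 1.11, limma adjusted p = 0.0848). UCP3, named as an uncoupling protein, was at −0.31 ± 0.09, below 0 on every array (limma adjusted p = 0.0970).

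The remaining carboxylate carriers were the 2 tested carriers whose ratio turned sign between dye orientations by more than 1. A gap of more than 1, whatever the signs, was no more frequent among carriers than elsewhere. It was seen in 4.44% of the tested carriers, beside 8.09% of all tested loci. The succinate-fumarate carrier mSFC1 (AT5G01340) stood at −0.66 and −0.77 on replicates 1 and 2 and at 0.56 on replicate 3. Its mean was −0.29 ± 0.74 (limma adjusted p = 0.537). DIC3 (AT5G09470), dicarboxylate carrier 3, stood at 0.26 and 0.40 on replicates 1 and 2 and at −1.92 on replicate 3, with a mean of −0.42 ± 1.301 (limma adjusted p = 0.604).

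The DIC3 signal in tdt-1 and wild type was 91.2 and 75.9 on replicate 1, 103 and 77.8 on replicate 2, and 215 and 812 on replicate 3. Wild type was well above background on 2 of the 3 arrays, replicates 2 and 3. In the authors' deposited values DIC3 was at 1.15, 1.33 and −2.31, with a mean of 0.06, so the sign of its mean depends on the processing while the opposition between the arrays was seen in both sets of values. The part of signal strength, dye or layout in the DIC3 ratios was not tested.

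**Figure D4:**
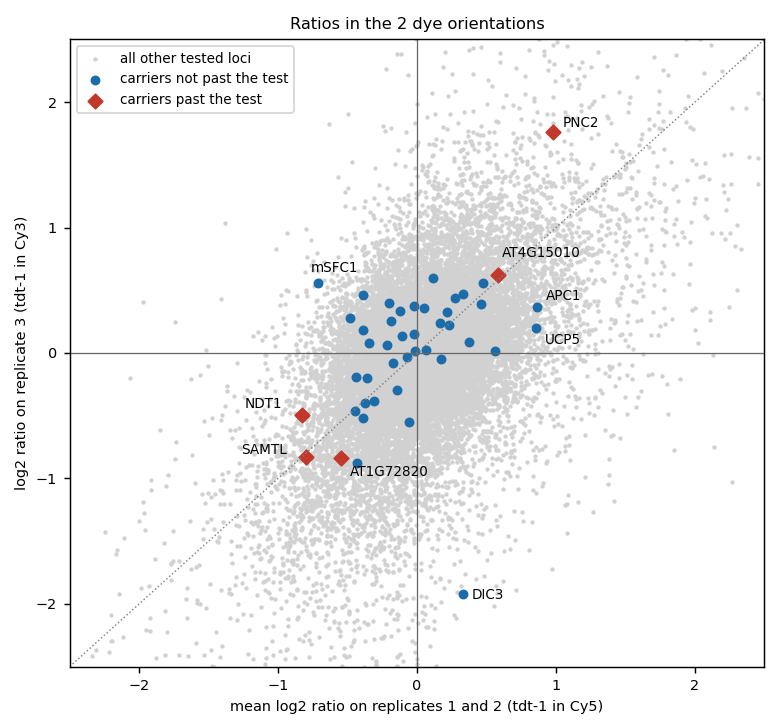
Mean log2 ratio on replicates 1 and 2 (x axis) against the log2 ratio on replicate 3 (y axis) for all other tested loci (grey) and the 45 tested carriers (blue, not past the test, and red, past it), with the line of equal ratios dotted. The 5 red points have 1 sign on both axes, while mSFC1 and DIC3 lie in the quadrants of opposite sign. Of the other loci, 247 lie outside the axes, which end at 2.5 in each direction.

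The 5 carriers past the test had 1 sign in both dye orientations. PNC2 had a mean of 0.98 on replicates 1 and 2 against 1.76 on replicate 3, and SAMTL −0.80 against −0.83. In 15 of the 45 tested carriers the ratio on replicate 3 and the mean of replicates 1 and 2 had opposite signs, which is 33.3%, beside 34.6% of all tested loci. Replicate 3 was the higher in 27 of the 45 carriers, or 60.0%, beside 43.5% of all loci. A dye term, which also takes up layout, scan day and scan settings, sets replicate 3 alone against replicates 1 and 2, so no test of it is given. The median gap, replicate 3 minus the mean of replicates 1 and 2, was 0.09 in the carriers, beside −0.07 in all tested loci. Across the 45 carriers, the ratios of replicates 1 and 2 had a Pearson r of 0.85, and each had an r of 0.45 or 0.43 with replicate 3. Over all 20484 loci these values were 0.94, 0.53 and 0.57. They are given as a description, since loci are not replicates and replicates 1 and 2 share dye, layout and scan day.

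Carriers of amino acids and S-adenosylmethionine comprised 5 loci, all tested, with none higher and 1 lower, which was SAMTL. SAMC1, which brings S-adenosylmethionine into plastids, was at −0.22 ± 0.31, and SAMC2, its named relative, at 0.19 ± 0.11. SAMTL was thus the single member of the 3 with this substrate in its name that passed the test. MBAC1 and BAC2 carry arginine and other basic amino acids across the mitochondrial membrane, and stood at −0.14 ± 0.07 and 0.25 ± 0.08.

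Cofactor carriers comprised 5 loci, all tested, with none higher and 1 lower, which was NDT1. NDT2, the second NAD+ transporter, was at −0.28, −0.10 and 0.25, with a mean of −0.04 ± 0.27. AT1G14560 and AT4G26180, listed as CoA carriers 1 and 2, were at −0.03 ± 0.14 and −0.01 ± 0.07. The folate transporter FOLT1 was at 0.15 ± 0.18. Apart from NDT1, the mean ratios of these loci, named in the reference table, therefore lay between −0.04 and 0.15. The fixed list by substrate also places AT3G21390 and AT5G48970 among cofactor carriers, at −0.34 ± 0.12 and −0.20 ± 0.26. The reference table does not name them, so they are counted below without a role, and neither passed the test.

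Neither of the 2 carriers named for metals passed the test. MTM1, named as a manganese trafficking factor for mitochondrial superoxide dismutase, was at 0.28 ± 0.28, and Mfl1, a mitoferrin-like protein of plastids, at 0.11 ± 0.23. For both, replicate 3 was the highest of the 3 arrays. The fixed list by substrate also places AT2G30160, AT1G07030 and AT2G46320 among metal carriers, at 0.38 ± 0.66, −0.35 ± 0.15 and 0.05 ± 0.02. The reference table does not name them, so they are counted below without a role, and none passed the test. PHT3;3, a mitochondrial phosphate transporter, was at 0.10 ± 0.13 and did not pass the test.

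The 21 carriers without an annotated substrate included 20 that were tested, of which 1 rose and 1 fell, as given for AT4G15010 and AT1G72820. Their median ratio was −0.08 over the mean ratios, and −0.12, −0.18 and 0.04 on replicates 1, 2 and 3, with the sign turned on replicate 3. AT5G26200 was at −0.35, −0.52 and −0.88, below 0 on every array, with a mean of −0.58 ± 0.27 (limma adjusted p = 0.0637). AT2G26360 was at −0.34, −0.55 and −0.46, with a mean of −0.45 ± 0.10 (limma adjusted p = 0.0515). AT4G03115 was at −0.38 ± 0.02, with SAMTL and AT4G15010 among the carriers of least spread between arrays, but missed the threshold (limma adjusted p = 0.0567). In the authors' deposited values AT4G03115 was at −0.89, −0.78 and −0.42, so its small spread depends on the processing. There SAMTL was at −1.05, −0.97 and −0.86, and AT4G15010 at 0.53, 0.65 and 0.65.

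AT3G20240 was the highest carrier of this group after AT4G15010, at 0.86, 0.09 and 0.56, with a mean of 0.50 ± 0.39 (limma adjusted p = 0.131). Replicate 2 was far below the other arrays there. In AT2G30160 a single array set the mean, with 1.14 on replicate 1 and −0.02 and 0.02 on replicates 2 and 3, for a mean of 0.38 ± 0.66. Signal in tdt-1 and wild type was low there, 127 and 57.3 on replicate 1 and 141 and 142 on replicate 2. The scanner software's p-value for the replicate 1 spot was 0.40, and the part of signal strength in that ratio was not tested. AT1G07025 was well above background in neither genotype on any array and was not tested. The remaining 13 of the 21 had mean ratios between −0.35 and 0.33, and none passed the test.

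Members of a shared name were then set against each other within each array, by the difference of their ratios, in 9 pairs. The 3 arrays allow a two-sided exact sign-flip permutation test no p below 0.25, so no pair could reach the threshold, and adjustment over the pairs was not made. NDT2 lay above NDT1 by 0.63, 0.64 and 0.75, with a mean of 0.67 ± 0.06 (exact p = 0.25). BAC2 lay above MBAC1 by 0.39 ± 0.09 and SAMC2 above SAMC1 by 0.41 ± 0.32, in each case on all 3 arrays (exact p = 0.25). In the authors' deposited values BAC2 was at 0.75, 0.73 and 0.52 and MBAC1 at −0.65, −0.53 and −0.08. The size and spread of their difference thus depend on the processing. The pair differences had the same sign on all 3 arrays in 6 of the 8 pairs measured on all of them. The pairs among APC1, APC2 and APC3 share members, so the 8 are not separate observations. No share over other pairs of loci is given here, and 58.9% of all tested loci had 1 sign on all 3 arrays.

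The ATP-Mg/phosphate carriers were compared likewise. APC1 lay above APC3 by 1.302, 1.19 and 0.18, with a mean of 0.89 ± 0.62, and APC2 lay above APC3 by 0.63 ± 0.37 (exact p = 0.25 for each). APC1 and APC2 differed by 0.26 ± 0.27, with a turned sign on replicate 3 (exact p = 0.5). The CoA carriers AT4G26180 and AT1G14560 differed by 0.02 ± 0.15 (exact p = 0.75), which is within the spread between arrays. UCP5 lay above DIC3 by 1.06 ± 0.93 (exact p = 0.25), at 0.68 and 0.37 on replicates 1 and 2 and at 2.12 on replicate 3.

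A fixed list of further family members, whose array description uses other words, held 11 loci, all tested, with none higher and 1 lower. That is 9.09% called, beside 13.3% of all tested loci. The one that fell was BOU (AT5G46800), a mitochondrial carrier needed for photorespiration. Its ratios were −0.60, −0.50 and −1.04, with a mean of −0.71 ± 0.29 (limma adjusted p = 0.0488). The mitochondrial ADP/ATP carriers AAC1, AAC2 and AAC3 were at −0.10 ± 0.13, 0.52 ± 0.48 and 0.47 ± 0.26, and none of them passed the test. AAC2 stood at 0.18 and 0.30 on replicates 1 and 2 and at 1.07 on replicate 3.

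Mitochondrial genes outside the carrier family were read from fixed lists for comparison. The lists are short and no set test was made on them. Of 24 genes of pyruvate dehydrogenase and the tricarboxylic acid cycle, which use what the carriers import, none was higher and 1 was lower. This is 4.17%, beside 13.3% of all tested loci. That gene was IDH2 (AT2G17130), a regulatory subunit of NAD-dependent isocitrate dehydrogenase, at −0.48 ± 0.07 (limma adjusted p = 0.0424). Of 13 genes of outer membrane porins and protein import, none passed the test. An unadjusted limma p under 0.05 was found for 1 of them, beside 35.1% of all tested loci. The smallest p there belonged to TIM8, a chaperone of the intermembrane space, at 0.64 ± 0.27 (limma adjusted p = 0.0554), followed by TOM20-2, an import receptor of the outer membrane, at −0.15 ± 0.08.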

How the data were processed

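Expression was measured in tdt-1 and wild-type seedlings on 3 two-colour arrays. The deposited scanner files give spot intensities (mean signal and median local background) per channel and, per the file headers, a log10 ratio of Cy5 over Cy3 and its p-value written by Feature Extraction of Agilent (8.5.1.1 on replicates 1 and 2, 9.1.3.1 on replicate 3). The deposited series table holds log2 ratios. Its columns matched the scanner log ratios with slope 1 and r = 1 after the sign of replicate 3 was turned, with a median of 0 on each array, so it gives tdt-1 over wild type. No column of per-sample values was left unused for want of a sample.

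From the intensities, limma 3.58.1 in R 4.3.3 corrected the background (normexp, offset 50) and applied loess to each array's log ratios (weight 0 for controls). Replicate 3 was turned to the same direction. Controls were dropped, as were non-uniform spots (16, 11 and 81 on replicates 1, 2 and 3), and the brightest probe stood for a locus. Log2 ratios of all 20484 tested loci were tested against 0 (lmFit, eBayes, Benjamini-Hochberg, threshold 0.05), which was tested on simulated data. The number of arrays limits the precision. Of 25665 loci, 25449 matched the reference table (TAIR10.1, used for names only).

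The carriers, the gene lists and the tests were chosen with earlier results of these data known. Array values are given for carriers past the test, the 5 highest and 5 lowest means, and carriers whose ratio turns sign by more than 1 on replicate 3. AT2G30160 and the members of pairs were added after their values were seen. From other lists, genes past the test or otherwise the 2 smallest p are named, with AAC1, AAC2 and AAC3 chosen after their values were seen. Carriers on the lists that the files and the table do not name kept their locus code and no role.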

Additional observations from a re-analysis of the deposited data

How the results depend on the processing

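The 5 carriers past the test kept their sign under all 16 alternatives. Only the changes of background correction, normalization and log ratio could have turned it, as each of the 5 had 1 sign on all 3 arrays. The median carrier ratio, −0.03, lay between −0.08 and 0.03. The number past the limma test moved with the choice. Against 2 higher and 3 lower, there were 1 and 2 without background correction and 2 and 5 with plain background subtraction. There were 4 and 3 on the scanner log ratio and on the deposited table, and 3 and 4 with both genotypes required well above background. Of all tested loci, these settings called 9.23%, 12.8%, 15.2% and 14.4%, in the same order. Median centring (all-locus median 0.10 in place of 0.02), the trended robust variance and averaging replicates 1 and 2 each gave 0 higher and 0 lower, with 8, 20 and 8 carriers at an unadjusted p under 0.05. Of all tested loci they called 1, 0 and 43 at the adjusted threshold, in that order. The share of all tested loci at the unadjusted threshold is not given for these settings. The dye term gave 14 higher and 13 lower, and array weights 13 and 20 (weights 1.27, 7.40 and 0.11). All loci moved alike, to 64.4% and 72.6% called. Leaving out 1 array gave 0 to 10 higher and 0 to 17 lower, the most without replicate 3. The 0 without replicate 1 or 2 came with 8 unadjusted, again without a share of all tested loci at that threshold. Of all tested loci, 0.962%, 0.542% and 60.9% were called without replicates 1, 2 and 3. The large counts rest on the spread between replicates 1 and 2, which share dye, layout and scan day. Keeping non-uniform spots, added after seeing the data, gave 6 carriers, PNC1 and the same 5, beside 13.3% of all loci tested there. The sign of DIC3 turned from −0.42 to 0.058 on the scanner log ratio and the deposited table, and to 0.35 with array weights (limma adjusted p = 0.0273). With the dye term DIC3 was at −0.79, past the test in the other direction (limma adjusted p = 0.00016). It ranged from −0.83 to 0.33 with 1 array left out, positive without replicate 3 (limma adjusted p = 0.00788), and the cause was not tested. Each array pairs the genotypes, so the test of ratios is itself paired. The shared dye, layout and scan day of replicates 1 and 2 enter through the dye term and the averaging above. The arrays show no repeat hybridization. For DIC3, wild type was not well above background on replicate 1, and the part of signal strength in its ratios was not tested.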
